A study of Homo sapiens with 11 samples.

Results

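Acetylation of lysine 27 on histone H3 (H3K27ac) was compared between Ishikawa cells, a human endometrial cancer line, exposed for 8 h to 100 nM dexamethasone with 10 nM estradiol (the combination) and cells exposed for 8 h to DMSO (the vehicle). The regions described are all peaks of these 2 H3K27ac lists, 20873 for the combination and 21120 for the vehicle, together 41993 of the 90458 peaks in the 8 lists of the series. A combination peak with no vehicle peak overlapping it by at least 1 bp was called gained, a vehicle peak with no combination peak was called lost, and the rest were called kept. Chromatin immunoprecipitation with sequencing (ChIP-seq) lists for the estrogen receptor (ER, 2382 sites) and the glucocorticoid receptor (GR, 1628 sites), from cells given both hormones at these same doses for 1 h, were set beside them. Each group was 1 library, and all cells had been held in hormone-depleted, phenol red-free medium with charcoal-treated serum before treatment.

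H3K27ac is placed by coactivator acetyltransferases and is found at active promoters and active enhancers, on the nucleosomes that flank the sites where transcription factors bind. ER is opened to DNA binding by estradiol, and GR moves into the nucleus when it binds a glucocorticoid such as dexamethasone. Both receptors recruit such coactivators to enhancers, and in the endometrium estrogens favour growth while glucocorticoids can oppose it.

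The combination library held 9657258 usable tags and the vehicle library 18508574. Both lists were called against a control with the same total of 14002417 tags. The vehicle tags were scaled down to that total, whereas the combination tags were kept at their own number and the control was scaled. With 1 library a side there is no replicate check and no test between conditions. Every interval given is a 95% interval over peaks, exact binomial (Clopper-Pearson) for shares and from order statistics for medians, and covers counting error only. Because pileups (fragments stacked at a summit) were scaled differently, each peak's pileup was turned into a percentile within its own list. Depth and scaling differed between the 2 lists, and their part in the results was not tested. A list describes a whole culture, so a mark in more cells and more of the mark per cell cannot be told apart. The labels give 8 h for the H3K27ac libraries and 1 h for the receptor libraries, although the treatment protocol text speaks of 1 h. Receptor binding at 8 h and receptor lists of vehicle cells were not analysed here. Marker genes of the cell line were not checked, because no annotation of the hg19 build was used here.

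Gained and lost peaks were about equally many. Of the combination peaks, 4836 were gained, 23.2% of the list (22.6 to 23.7%), and of the vehicle peaks 4743 were lost, 22.5% (21.9 to 23.03%). The other 16037 combination peaks (76.8%) overlapped 16377 vehicle peaks (77.5%). Gained peaks covered 2.67 Mb, or 13.2% of the 20.3 Mb under all combination peaks. Lost peaks covered 1.81 Mb, or 10.1% of the 18.0 Mb under all vehicle peaks.

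Both classes came mostly from the weak end of their lists, but the gained class reached further into the strong end. Split by the authors' −log10 q, the gained share was 4.81% in the strongest 25% of combination peaks, 13.7% and 28.3% in the next bands of 25% and 45.8% in the weakest. The lost share was 0.739% in the strongest 25% of vehicle peaks, only 39 of 5280, then 10.5%, 32.1% and 46.4%. The median pileup percentile was 21.0 for gained peaks and 25.1 for lost peaks, against 58.3 and 60.2 for kept peaks of the combination and the vehicle. The highest percentile was 99.5 among gained peaks and 89.5 among lost peaks.

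Gained peaks were also the wider of the 2 classes. Their median width was 415 bp, against 336 bp for lost peaks and 673 and 657 bp for kept peaks of the combination and the vehicle. Widths over 1 kb were found in 395 gained peaks (8.17%), up to 6831 bp, and in 27 lost peaks (0.569%), up to 2055 bp. The shortest peak a list can hold is its fragment length, 280 bp for the combination and 244 bp for the vehicle, and 5.89% of gained and 2.80% of lost peaks were at that limit.

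Many calls lay close to a peak of the other list. Of the gained peaks, 1537 (31.8%) were within 1 kb of a vehicle peak, and 1884 lost peaks (39.7%) were within 1 kb of a combination peak. Gained peaks with an ER or GR site within 1 kb were more often on their own: 15.8% of them (13.6 to 18.2%) had a vehicle peak within 1 kb, against 35.9% (34.4 to 37.5%) of gained peaks without a site. Lost peaks ran the other way: 37 of 63 with a site (58.7%, 45.6 to 71.0%) had a combination peak within 1 kb, against 39.5% (38.1 to 40.9%) without one. On the other side of the rule, 23 of the 12281 kept pairs matched one to one overlapped by under 50 bp.

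ER and GR sites lay near many gained peaks and few lost peaks. An ER site was within 1 kb of 804 gained peaks, 16.6% (15.6 to 17.7%), of 1079 kept combination peaks, 6.73% (6.35 to 7.13%), and of 45 lost peaks, 0.949% (0.693 to 1.27%). GR sites were near 531 gained peaks, 11.0% (10.1 to 11.9%), 671 kept combination peaks, 4.18% (3.88 to 4.51%), and 26 lost peaks, 0.548% (0.358 to 0.802%). At least one of the receptors was near 994 gained peaks (20.6%), 1328 kept peaks (8.28%) and 63 lost peaks (1.33%). The remaining 3842 gained peaks (79.4%) had neither receptor within 1 kb. An ER site that itself overlapped a GR site was near 338 gained peaks (6.99%), 407 kept peaks (2.54%) and 8 lost peaks (0.169%).

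**Figure D1:**
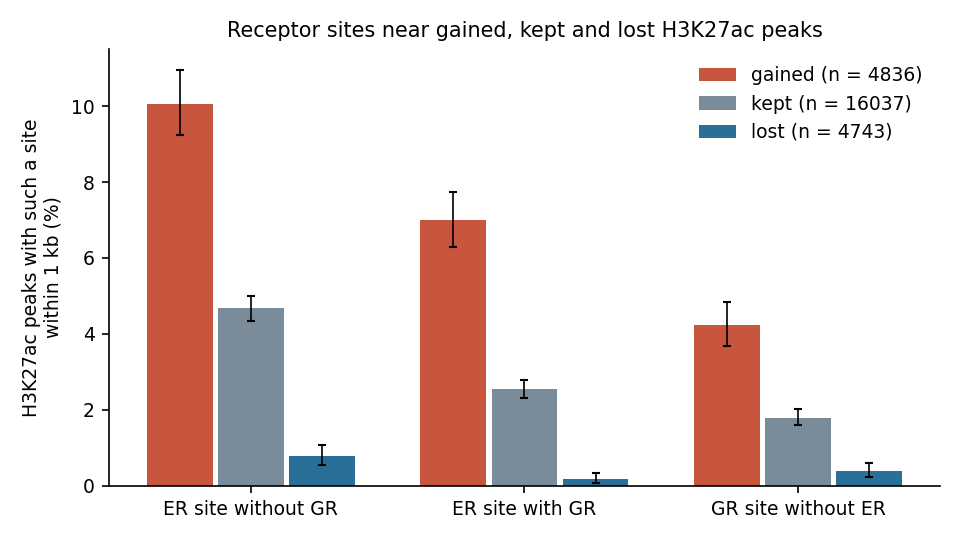
Share of gained, kept (combination) and lost H3K27ac peaks (%) with an ER site without GR, an ER site overlapping a GR site, or a GR site without ER within 1 kb. Bars are shares and whiskers 95% binomial intervals over peaks; gained peaks have the highest share for each kind of site (10.1%, 6.99% and 4.24%) and lost peaks the lowest (0.780%, 0.169% and 0.380%).

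Most of the strongest gained peaks had a receptor site nearby, and so did most of the strongest kept combination peaks. Of the 100 gained peaks with the highest −log10 q, 78 had an ER site, 68 a GR site and 88 (80.0 to 93.6%) at least one of them within 1 kb. At least one was near 76 of the 100 strongest kept combination peaks (66.4 to 84.0%). Those kept peaks were wider, with a median of 7090.5 bp against 1888 bp. None of the 100 strongest lost peaks had either, which allows a share of up to 3.62%. Those lost peaks were the narrowest, with a median of 427.5 bp. Kept vehicle peaks from 400 bp to under 800 bp, of all strengths, had an ER site in 4.25% and a GR site in 2.58%. The ER share was just above the 3.62% limit and the GR share below it. The strongest peaks were not matched for width. Among the strongest 500, at least one receptor was near 57.6% of gained, 56.8% of kept combination and 0.4% of lost peaks. Their median widths were 961, 4713.5 and 411 bp. Gained peaks with both receptors had a median pileup percentile of 50.2 and a median width of 732 bp. Gained peaks with only an ER site or only a GR site both stood at a median percentile of 29.5, with widths of 547 and 554 bp. Those with neither stood at 18.1, with a width of 390 bp.

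A wider peak meets more sites, so the shares were also taken within classes of width. Among peaks under 400 bp, 8.79% of gained peaks (200 of 2276), 1.48% of kept combination peaks and 1.05% of lost peaks had an ER site within 1 kb. Among peaks of 1600 bp and over, 66.2% of gained peaks (98 of 148) and 24.3% of kept combination peaks had one. GR sites followed the same order in these classes, with 5.32%, 0.771% and 0.524% under 400 bp, and 41.2% and 17.1% at 1600 bp and over. The intervals of gained and kept combination peaks did not overlap in either class for either receptor. Kept peaks under 400 bp measured in the vehicle list, before any widening, had an ER site in 6.18% (5.38 to 7.06%) and a GR site in 3.78% (3.15 to 4.49%). The GR interval overlapped that of gained peaks of this width (4.43 to 6.32%), and the ER interval did not (7.66 to 10.03%).

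Every one of the 10 strongest gained peaks had both an ER and a GR site within 1 kb. The strongest was chr2:233237974-233242600 (hg19), 4627 bp wide with a pileup of 200, a fold enrichment over local background of 39.1 and a percentile of 99.5. Its nearest vehicle peak was 172223 bp away. An ER site at chr2:233239882-233240156 and a GR site at chr2:233239903-233240120 lay inside it, with fold enrichments of 39.5 and 19.4. In the estradiol H3K27ac list (23888 peaks) the same place held a peak at percentile 99.1, and in the dexamethasone list, the shortest with 15192 peaks, it held none. Over all gained peaks, 52.9% were overlapped by an estradiol peak and 35.9% by a dexamethasone peak. The same shares were not taken for all combination peaks, and the longer list offers more peaks to overlap. Whether these overlaps are particular to gained peaks was not tested.

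The second, chr15:39956986-39962970, was 5985 bp wide at percentile 99.004, with an ER site of 53.9-fold and a GR site of 62.5-fold enrichment inside it. Its percentiles were 99.2 in the estradiol list and 47.4 in the dexamethasone list. The third, chr3:77609286-77615253, stood at percentile 98.4 and had no vehicle peak for 1453320 bp. Its estradiol percentile was 89.0 and its dexamethasone percentile 29.6. Each of these 3 peaks stood high in the combination and estradiol lists, and in the dexamethasone list it was missing, near the middle and in the lower part.

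The next peak had another order. At chr2:120468495-120473448, with 3 ER and 2 GR sites, the percentile was 96.0 with the combination, 65.3 with estradiol and 76.1 with dexamethasone. The widest of the 10, chr11:69948750-69955580, was 6831 bp wide, held 3 ER and 3 GR sites, and stood at 96.9 with the combination and 97.8 with estradiol. For this peak and the other five, at chr2:238467837-238469252, chr17:27405801-27407086, chr11:3029970-3034109, chr2:11679103-11681729 and chr1:12607578-12611457, no dexamethasone peak overlapped. The other five had combination percentiles of 94.8 to 97.3 and estradiol percentiles of 79.4 to 98.3. Of the 100 strongest gained peaks, 49 were overlapped by a dexamethasone peak and 88 by an estradiol peak. The strongest kept peaks were not counted in this way. The estradiol, dexamethasone and combination libraries are set against the same vehicle library and their lists differ in length, so these values stand side by side as description only.

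None of the 10 strongest lost peaks had a receptor site within 1 kb. They were 349 to 651 bp wide at vehicle percentiles of 69.6 to 86.9. The strongest, chr6:11094002-11094378, had a pileup of 90.03, a fold enrichment of 17.7 and a percentile of 86.9, and a combination peak lay 162 bp from it. The next, chr14:32672439-32672935, stood at percentile 81.4 with its nearest combination peak 124916 bp away. Peaks of the combination list lay 114 to 832 bp from 6 of the 10. All 10 had a counterpart in the estradiol list, at percentiles of 57.3 to 87.0, and chr19:2164139-2164548 alone had one in the shorter dexamethasone list, at 25.6. Over all lost peaks these overlaps were 80.5% for estradiol and 8.29% for dexamethasone. Lost peaks came mostly from the weak end of their list, and the same shares were not taken for all vehicle peaks. Whether these overlaps are particular to lost peaks was not tested.

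The gained share was highest for peaks whose edge lay 1 bp to 1 kb from a receptor site. Of combination peaks whose nearest ER or GR site was 1 bp to 1 kb away, 61.8% were gained (58.7 to 64.9%, 604 of 977). The share was 52.3% at 1 to 5 kb, 33.6% at 5 to 20 kb, 21.2% at 20 to 100 kb and 15.4% (14.8 to 16.1%) beyond 100 kb. Peaks overlapping a site were gained in 28.996% (26.6 to 31.5%). A wide peak overlaps a site more readily, and kept combination peaks were wider than gained peaks (medians of 673 and 415 bp). The distance classes were not matched for width. The lost share ran the other way, with 1.98% for vehicle peaks overlapping a site, 7.33% at 1 bp to 1 kb, 12.05%, 20.2% and 22.3% in the next classes and 25.7% (24.9 to 26.4%) beyond 100 kb. The 604 gained peaks beside a site left a median gap of 153.5 bp to it.

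**Figure D2:**
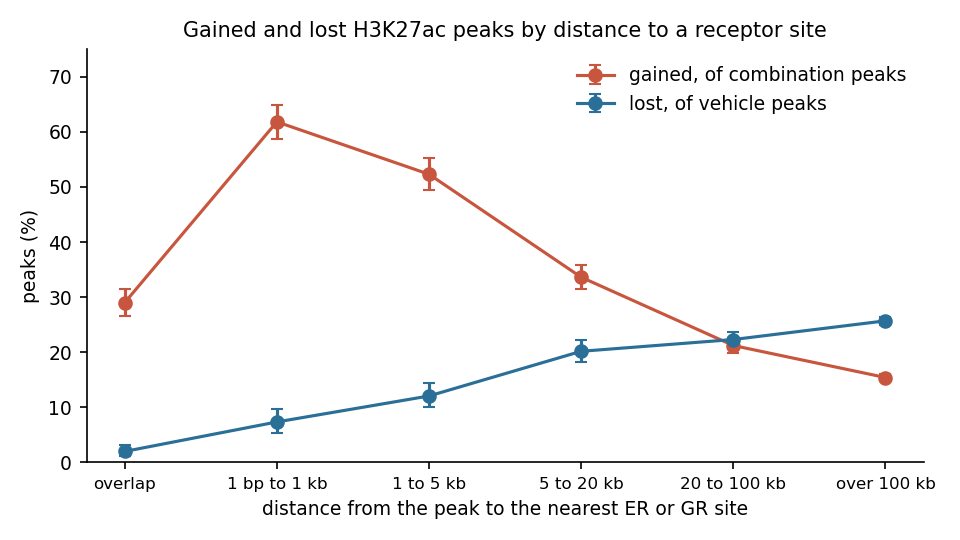
Share of combination peaks gained and of vehicle peaks lost (%) by distance from the peak to the nearest ER or GR site of the combination, with 95% binomial intervals over peaks. The gained share is 61.8% at 1 bp to 1 kb and 15.4% beyond 100 kb, whereas the lost share is 1.98% for peaks overlapping a site and 25.7% beyond 100 kb.

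H3K27ac summits stood to either side of the receptor summits. In gained peaks that overlapped an ER site, the H3K27ac summit was a median of 361 bp (345 to 388 bp, 293 sites) from the ER summit. It was within 150 bp in 6.14% and at 150 to 500 bp in 71.7%. In kept peaks the median was 512 bp (487 to 540 bp, 915 sites), with 2.84% within 150 bp. GR sites gave 363 bp in gained peaks (189 sites) and 501 bp in kept peaks (587 sites). The receptor summit lay near the rim of the gained peak, a median of 4.01% of the peak's width from its nearer edge for ER and 2.22% for GR. In kept peaks, which were wider, these medians were 33.2% and 36.0%.

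**Figure D3:**
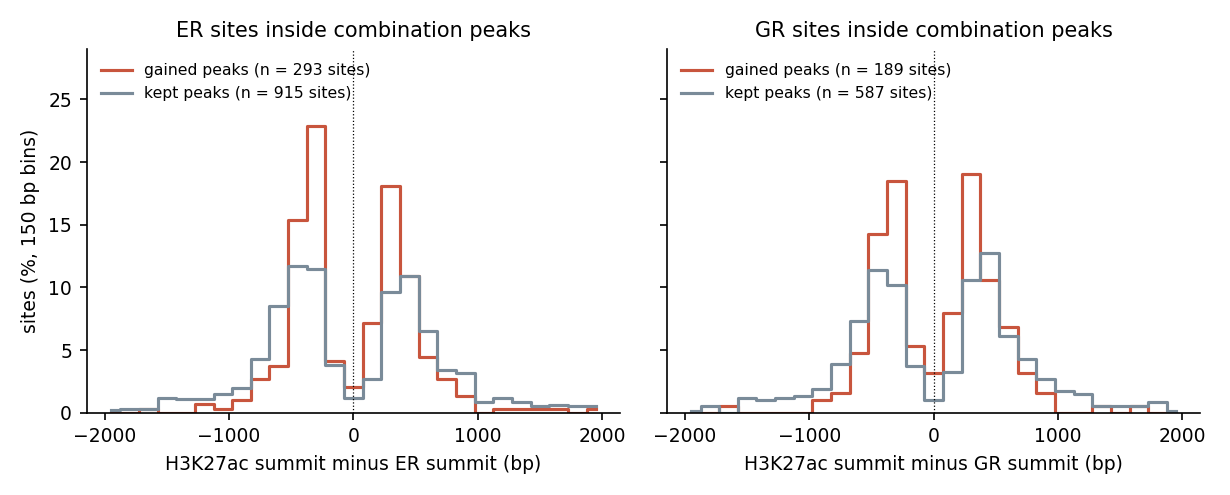
Distance in bp from the ER or GR summit to the H3K27ac summit of the combination peak over it, as % of sites in 150 bp bins, for gained and kept peaks. Offsets past the axis ends are not drawn. Both receptors give 2 humps with a dip at 0, and the humps of gained peaks are narrower (median distance 361 bp for ER) than those of kept peaks (512 bp).

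Seen from the receptor lists, sites of both receptors were the most acetylated. Of the 2382 ER sites, 759 (31.9%) overlapped a GR site. Vehicle H3K27ac peaks overlapped 348 of these 759 sites, 45.8%, and combination peaks 521, 68.6%. A combination peak without a vehicle peak was found at 175 of them, 23.1% (20.1 to 26.2%), and the reverse at 2, 0.264%. For the 1623 ER sites without GR, the counts were 520 (32.0%) with vehicle and 687 (42.3%) with the combination, with 200 (12.3%) in the combination list alone and 33 (2.03%) in the vehicle list alone. For the 860 GR sites without ER they were 202 (23.5%) and 274 (31.9%), with 91 (10.6%) and 19 (2.21%) in 1 list alone.

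ER sites with GR also had the highest share among sites with no vehicle peak over them. A combination peak overlapped 42.6% of such ER sites with GR (37.8 to 47.5%), 18.1% of ER sites without GR (15.9 to 20.5%) and 13.8% of GR sites without ER (11.3 to 16.7%). The intervals of ER sites without GR and GR sites without ER overlapped. Of these ER sites with GR, 191 of 411 were in the strongest 25% of the ER list, against 153 of 1103 without GR, so the shares were also split by site strength. In the strongest 25% of the ER list they were 58.1% (111 of 191) with GR and 33.3% (51 of 153) without. In the weakest 25% they were 18.0% (11 of 61) and 14.4% (46 of 320), which differed by less than their intervals.

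By the 1 bp rule, new peaks overlapped the ER site more often than they stood on its flanks alone. Such an overlap can be a touch at the rim. In gained peaks overlapping an ER site, the ER summit lay a median of 4.01% of the width from the nearer edge. Of the 1317 ER sites with no vehicle peak within 1 kb, a combination peak overlapped 276 (21.0%). Peaks stood on both flanks without overlapping the site at 84 and on 1 flank at 106. The other 851 (64.6%) had no combination peak within 1 kb either. Of the 142 ER sites with a vehicle peak on 1 flank, 66 (46.5%) were overlapped in the combination list and 31 had peaks on both flanks.

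Strong receptor binding was found without H3K27ac as well. The strongest ER site with GR, chr3:98641531-98641970 at 77.7-fold, the strongest ER site without GR, chr4:90622352-90622713 at 54.6-fold, and the strongest GR site without ER, chr6:30894604-30894837 at 80.2-fold, had no H3K27ac peak within 1 kb in either list. By contrast, the ER and GR site at chr16:50994521-50994836 (68.4-fold for ER) had no vehicle peak and a combination peak of 2413 bp at percentile 79.8. At chr12:52636962-52637174, a GR site without ER at 44.8-fold, H3K27ac was high in both lists, at percentiles of 99.98 with vehicle and 99.94 with the combination. At chr5:167743384-167743666, an ER site without GR at 45.2-fold, a 344 bp vehicle peak at percentile 19.98 had no combination counterpart.

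Of the kept peaks, 12281 matched one to one, and these pairs were used for changes of rank and width. Their summits were a median of 69 bp apart. Across pairs the percentiles had a Spearman rho of 0.75 and the widths one of 0.72, as a description of 2 libraries that share a control. Over all pairs the percentile was a median of 2.18 points lower with the combination (median difference -2.18) and the width was nearly the same (log2 ratio 0.03). A percentile at least 20 points higher with the combination was found in 1440 pairs (11.7%), and one at least 20 points lower in 1795 (14.6%). Pairs at least 2-fold wider numbered 650 (5.29%) and pairs at least 2-fold narrower 374 (3.05%).

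Kept pairs near a receptor site stood higher and wider with the combination. The site was taken within 1 kb of the vehicle peak, so that widening could not bring it in. The median difference in percentile, combination minus vehicle, was 10.4 points (6.51 to 13.5) for 218 pairs with both receptors. It was 5.04 (3.10 to 7.86) for 423 pairs with an ER site only, 7.02 (2.15 to 14.1) for 167 with a GR site only and -2.87 (-3.06 to -2.58) for 11473 with neither. Counting pairs of both receptors in each, all 641 pairs with an ER site had a median of 6.53 and all 385 with a GR site 9.09. Where the site overlapped the vehicle peak these were 3.14 and 3.54. Pairs overlapping a site had a median vehicle percentile of 82.6, which leaves less room to stand higher. It was 35.4 for pairs whose nearest site was 1 bp to 1 kb away. The intervals of the 3 separate classes with a site overlapped each other, and none overlapped that of pairs with neither. Median log2 width ratios were 0.40, 0.30 and 0.29 for both, ER only and GR only, and 0.02 with neither.

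A peak that is low with vehicle has more room to stand higher, so the shift was read against pairs without a site in the same 25% of vehicle percentiles. In the lowest 25% of vehicle percentiles the median difference was 52.1 points (38.0 to 75.3, 36 pairs) with both receptors, 33.6 (23.6 to 40.1, 82 pairs) with ER only, 28.5 (19.2 to 36.6, 35 pairs) with GR only and 9.53 (8.88 to 10.8, 1740 pairs) with neither. In the next 25% the medians were 40.7, 22.9, 18.7 and -0.83, and in the third 22.3, 5.12, 18.6 and -7.33. In the highest 25%, where a percentile has little room left, they were 1.92, -0.001, 0.43 and -4.56. In the lowest 25% the median width with both receptors was 350.5 bp in the vehicle list and 1350 bp in the combination list, against 374 and 449 bp with neither.

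**Figure D4:**
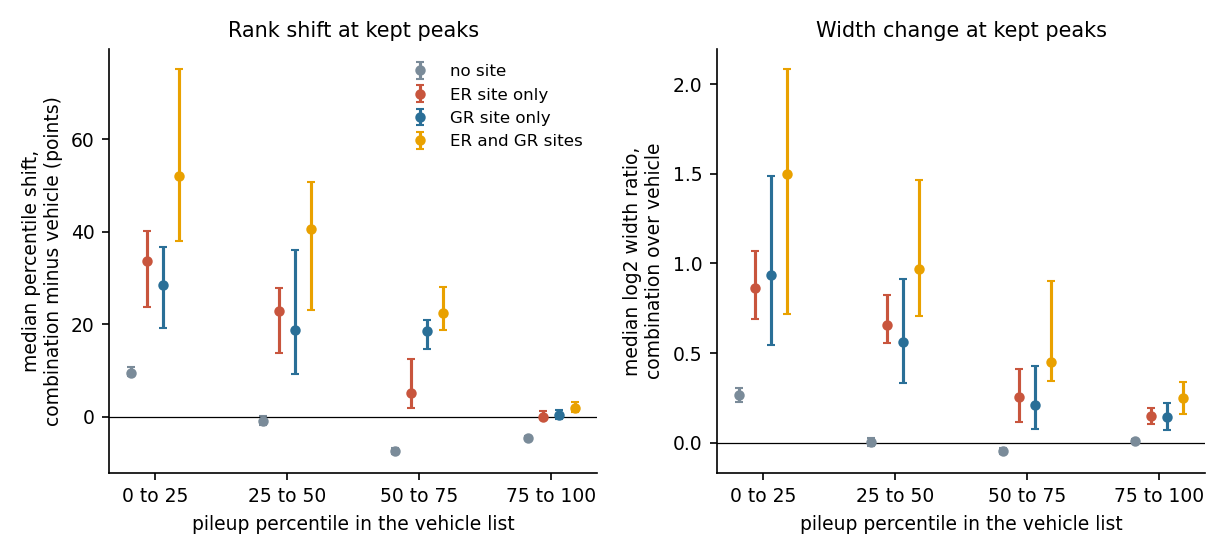
Median difference in pileup percentile and in log2 width, combination minus vehicle, by band of 25% of the vehicle percentile for kept pairs with ER and GR sites, only ER, only GR or neither within 1 kb of the vehicle peak. Bars are 95% order-statistic intervals over pairs. In the lowest band the percentile difference is 52.1 points with both receptors and 9.53 with neither.

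Pairs that stood higher by 20 points carried a site more often than those that stood lower. An ER or GR site was near the vehicle peak in 254 of the 1440 higher pairs, 17.6% (15.7 to 19.7%), in 533 of the 9046 pairs between the limits, 5.89%, and in 21 of the 1795 lower pairs, 1.17% (0.726 to 1.78%). With GR alone counted, 131 higher and 4 lower pairs had a site. Of the 650 pairs at least 2-fold wider, 165 (25.4%, 22.1 to 28.9%) had a site, against 9 of the 374 at least 2-fold narrower (2.41%). The other 1186 of the 1440 higher pairs had no site within 1 kb.

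**Figure D5:**
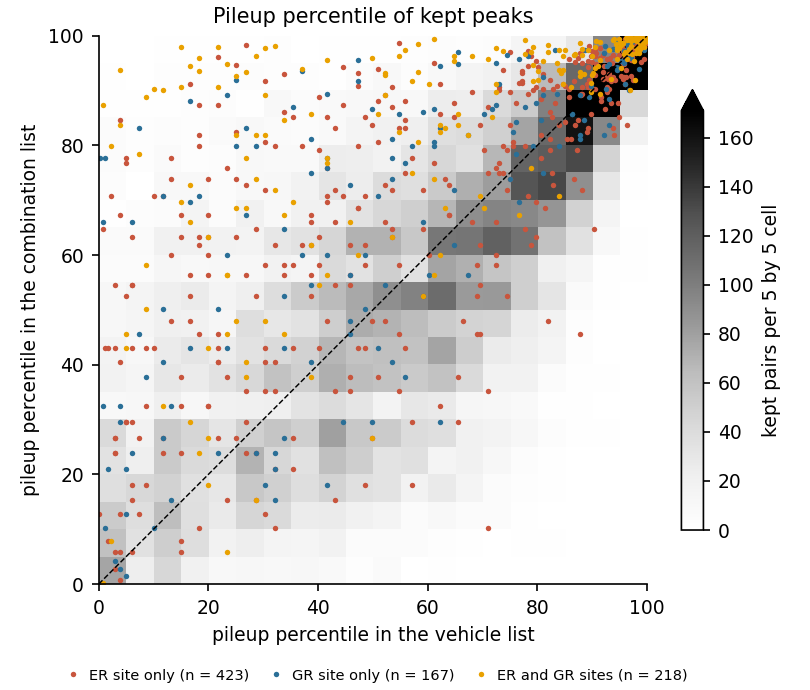
Pileup percentile in the vehicle list (x axis) against the combination list (y axis) for the 12281 kept pairs. Grey shading is the number of pairs per 5 by 5 cell, dots are pairs with an ER site only, a GR site only or both within 1 kb of the vehicle peak, and the dashed line marks equal percentiles. In the lowest 25% of vehicle percentiles, 91.5% of pairs with a site and 74.7% of pairs with neither lie above the diagonal. Over all vehicle percentiles, 254 of the 808 pairs with a site are higher by at least 20 points and 21 lower.

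Pairs with stronger ER sites had larger width ratios. From the strongest to the weakest 25% of the ER list, pairs with an ER site had median log2 width ratios of 0.73 (0.48 to 0.85), 0.35, 0.29 and 0.21 (0.13 to 0.31). Their percentile differences were 11.7, 6.58, 6.42 and 2.89. In the strongest 25% of the ER list 372 of 595 sites overlapped a GR site, against 95 of 596 in the weakest. These values were not split by GR overlap or by vehicle percentile, so site strength was not separated from either. For GR the width ratios were 0.63, 0.33, 0.32 and 0.23, while the percentile differences of 9.84, 12.8, 3.48 and 13.4 had no such order. The combination peak of a pair reached over 78 ER sites that the vehicle peak left out, and the reverse was found at 23. For GR these numbers were 52 and 14.

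The pair with the largest gain in rank had no receptor site. On chromosome X, a vehicle peak of 336 bp at chrX:35460473-35460808 stood at percentile 0.125 with a pileup of 18.16. Its combination counterpart, chrX:35459750-35461107, was 1358 bp wide at percentile 93.0 with a pileup of 96. Estradiol and dexamethasone alone gave 74.1 and 83.2 there. The second pair had an ER and a GR site between its edges: at chr13:101049501-101053477 the percentile was 3.91 with vehicle and 93.8 with the combination, and the width 248 and 3977 bp. It stood at 74.8 with estradiol and 64.6 with dexamethasone. Both pairs were chosen for a low vehicle and a high combination percentile, so these percentiles are fixed by that choice. The widths, receptor sites and single-hormone values were not used in it. Width ratio and rank shift went together across all pairs, however (Spearman rho 0.51). The single-hormone values come from lists of other lengths.

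Of the 10 pairs with the largest gain in rank, 6 had an ER site and 5 of them a GR site, and the other four had neither. At chr19:623571-625429, with both receptors, the percentile was 0.750 with vehicle and 87.4 with the combination. At chr3:103009705-103011557, with neither, it was 0.445 and 83.1, with 42.1 for estradiol and 83.2 for dexamethasone. At chr6:136242237-136243428, again with neither, it was 7.37 and 87.8, with 48.2 for estradiol and 92.6 for dexamethasone. These last 2 stood higher in the dexamethasone than in the estradiol list. That was not particular to pairs without a site. At chr8:9320013-9322712, with both receptors, the values were 72.6 for estradiol and 92.1 for dexamethasone. Other pairs had the reverse order, such as chr9:108673060-108676652, with both receptors, at 89.2 for estradiol and 5.20 for dexamethasone.

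Of the 10 pairs with the largest loss in rank, 1 had an ER site and none a GR site. At chr9:74871054-74871487 the percentile was 80.1 with vehicle and 7.94 with the combination, and the width 681 and 434 bp. At chr14:104691126-104691405 the percentile was 94.0 and 26.6, and the width 1535 and 280 bp, the latter the shortest the combination list allows. At chr19:28233417-28234178, the pair with the ER site, the width was 2767 bp with vehicle and 762 bp with the combination, the largest narrowing in bp of the 12281 pairs.

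The 5 pairs that widened most in bp all had ER sites and 4 had GR sites. The first, chr12:284142-292837 with 3 ER sites, was 244 bp wide with vehicle, the shortest that list allows, and 8696 bp with the combination, at percentiles of 26.9 and 98.2. At chr2:100251698-100258420 the width was 515 and 6723 bp and the percentile 21.7 and 98.0. At chr6:131224433-131230820 it was 432 and 6388 bp, over an ER site of 71.0-fold at chr6:131228186-131228453. At chr2:84310137-84314923 it was 375 and 4787 bp. The fifth, chr1:15236855-15242556, was already 1536 bp wide at percentile 61.2 with vehicle and 5702 bp at 99.4 with the combination. Of the 5 pairs that narrowed most in bp, 2 had an ER site and none a GR site.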

How the data were processed

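Peak tables of 1 library per group were used as the authors deposited them. Per the submitters' processing notes, Bowtie 1.1.2, MACS2 2.1.0.20140616 and the hg19 build were used; replicates or pooling are not given in the sources used here. The labels call the control both input and IgG. Per the file headers, each peak carries a deposited signal (the pileup at its summit), a −log10 p-value and −log10 q-value, and a fold enrichment ratio over local background, called at a p cutoff of 1e-10.

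Intervals were matched with a 1 bp overlap, and pileups were ranked within each list (Python 3.11.15, pandas 2.3.3, numpy 2.4.6, scipy 1.17.1). The matching was tested on simulated data. Percentiles of named peaks in the other lists are those of overlapping peaks. Peaks are named as the 10 gained and 10 lost with the highest −log10 q, the 10 pairs with the largest gain and the 10 with the largest loss of percentile, and the 5 that widened and 5 that narrowed most in bp. The receptor sites named without H3K27ac, and those beside them, were picked after their values were seen. The regions and lists were chosen with earlier results of these data known. Alternatives changed the matching rule, the peaks kept in each list, the ranking value and the site distance; none changed sequencing depth. Gene names, gene lists, marker genes and sequences at these positions were not analysed here, since the reference tables are of another build.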

Additional observations from a re-analysis of the deposited data

How the results depend on the processing

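Of 76 alternatives over 18 values, 25 stayed within the 95% interval of the main value and 51 moved outside it. Only 4 of the 18 values, the width change and the 3 rank shifts, have a sign, and none of their 24 alternatives reversed it. No paired analysis was possible because each group is 1 library, and for the same reason no replicate could be left out. Changes with the setting follow from its construction where fewer peaks or other distances are counted; otherwise the cause was not tested.

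Gained and lost shares were 41.6% and 42.3% with a reciprocal overlap of 50%, 15.8% and 13.5% with intervals matched within 1 kb, 24.9% and 25.8% with the stronger 50% of both lists, and 9.26% and 5.65% with the stronger 50% of the classified list alone. The gained share was thus below the lost share with reciprocal overlap and with the stronger 50% of both lists, and above it in the others. The median log2 width ratio of kept pairs was 0.0416 in merged regions, 0.0225 with reciprocal overlap and 0.0587 in the stronger 50%. The median percentile difference was 6.53 for all pairs with an ER site and 9.09 for all with a GR site. It was 4.90 for ER in merged regions, and with a site overlapping the peak it was more than 2 times smaller, 3.14 for ER and 3.54 for GR. Pairs overlapping a site already had a median vehicle percentile of 82.6. For pairs with neither, -2.87 by the main rule, it was -4.80 ranked by fold enrichment, -4.03 ranked by −log10 q, -1.82 among kept pairs only, -2.54 in merged regions and -3.23 with sites within 10 kb. A site near the peak of either list, an alternative chosen after seeing the data, moved none of the 3 medians outside its interval.

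ER shares of gained, lost and kept peaks were 6.66%, 0.295% and 4.91% with the site overlapping the peak and 34.2%, 4.74% and 12.3% within 10 kb. With the stronger 50% of the receptor lists they were 10.9%, 0.401% and 3.63%. GR shares in the same order were 4.16%, 0.105% and 3.14% overlapping, 24.7%, 3.23% and 8.49% within 10 kb, and 6.62%, 0.253% and 2.01% with the stronger 50% of the receptor lists. With the stronger 50% of both H3K27ac lists, gained and kept shares were 21.5% and 9.48% for ER and 15.5% and 6.07% for GR, and the lost share for GR was 0.257%. With peaks matched within 1 kb, gained shares were 20.6% for ER and 14.0% for GR, and the lost share for ER was 0.630%. Measured from the H3K27ac summit, kept shares were 6.01% for ER and 3.73% for GR. With H3K27ac counted within 1 kb of the site, 17.3% of ER sites without GR and 14.2% of GR sites without ER had it in the combination list alone, and 0.924% and 1.16% in the vehicle list alone. In each of these settings the gained share exceeded the kept share and the kept share the lost share, by 1.33 to 3.33 times for gained over kept.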

Other observations

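Gained peaks lay in runs more often than lost peaks did. Taking neighbouring gained peaks up to 10 kb apart with no kept peak between them, 290 runs of at least 3 peaks held 1084 gained peaks (22.4%), and 157 of these runs (54.1%) had an ER or GR site. For lost peaks there were 80 such runs with 259 peaks (5.46%), and 1 had a site. Runs of at least 5 peaks numbered 51 for gained and 3 for lost peaks, and 34 of the 51 had a site. A longer run spans more ground and so meets more sites. Runs of kept peaks or stretches of equal span were not counted, so these shares cannot be set against those of single peaks. The longest gained runs had 11 peaks. The first spanned chr16:16083510-16115026 with 3 ER sites and 1 GR site, and its best percentile was 74.9. The second spanned chr2:11618351-11656414 with 3 ER and 3 GR sites and reached 86.1. A run of 10 at chr17:27403758-27440780 had 4 ER sites and 1 GR site and reached 96.8. A run of 9 at chr17:80320968-80340355 had no site and reached 72.9.

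Chromosomes differed in the balance of gained and lost peaks. The gained share was 33.8% (29.7 to 38.1%) on chromosome 13, 32.5% on 21 and 29.3% on 4, and 15.3% (13.2 to 17.6%) on 19 and 16.6% on 22. The lost share was 26.9% (24.5 to 29.5%) on chromosome 19 and 18.8% (16.5 to 21.3%) on 4. Chromosome 21 was high in both directions, with the highest lost share, 27.05% (21.6 to 33.1%). The median percentile difference of kept pairs was -5.93 (-7.28 to -4.77) on chromosome 19, the lowest of the chromosomes with peaks, and -0.71 on chromosome 12. These values were not set against depth or base composition by chromosome.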
